A study of Mus musculus with 6 samples.

Results

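The 10 genes studied here mark regulatory T cells or encode costimulatory receptors of activated T cells, and they were followed through mouse tumours treated with a butanediol diet and immune checkpoint blockade. They were taken by symbol from the deposited count table, and all 10 were found among its 18848 genes: Foxp3, Il2ra, Ikzf2, Tnfrsf18, Tnfrsf4, Tnfrsf9, Icos, Lrrc32, Izumo1r and Il10. The table holds 5749 cells, which its annotation divides into 19 classes, among them 39 cells named T_reg, 169 named T_CD4+ and 559 named T_CD8+. The tumours grew from PPS-ICBR, a mouse prostate cancer line described as resistant to blockade, in C57Bl6 mice, and all groups carry that line. Each of 4 groups has 3 tumours. BD+ICB mice received both the diet and blockade, ICB mice received blockade alone, BD mice received the diet alone, and SD mice received standard chow. The BD chow was mixed with 1,3-butanediol, water and saccharine, so the sweetener moves with the diet. Blockade is labelled as 0.2 mg of PD-1 and CTLA-4 biweekly. Leukocytes were enriched on a Percoll gradient before sequencing, and class shares refer to that fraction.

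Foxp3 is the transcription factor that defines regulatory T cells, which restrain other T cells and are frequent in many tumours. Il2ra is the high-affinity subunit of the interleukin-2 receptor, present at rest on regulatory cells and for a time on any T cell after activation. Tnfrsf18 (GITR), Tnfrsf4 (OX40), Tnfrsf9 (4-1BB) and Icos are costimulatory receptors that appear on activated T cells and are often high on regulatory cells in tumours, so none of these genes alone separates the states.

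The tumours were sequenced as 2 pooled libraries with hashtags, 1 holding the BD and SD tumours and 1 holding the BD+ICB and ICB tumours. Each diet comparison therefore lies within a library, and blockade cannot be told apart from library. A tumour gave 70 to 913 cells and 510984 to 13007506 unique molecular identifiers (UMIs, each standing for 1 captured transcript), and 2 deposited barcodes occur in both libraries. The T cell yield was uneven, with 407 T cells in BD+ICB, 290 in ICB, 27 in BD and 43 in SD tumours. The deposited tumour sizes, given without a unit, also went with the diet: 48, 23 and 90 in BD+ICB and 1116, 995 and 289 in ICB, then 178, 203 and 172 in BD and 2348, 1216 and 870 in SD. The labels name 3 different tumours per group without naming mice, so a p-value speaks to the spread of these tumours alone.

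The T_reg name was checked against marker genes. Foxp3 was detected in 66.7% of the T_reg cells (26 of 39, 95% Wilson interval 51.0% to 79.4%), the T cell receptor component Cd3d in 89.7%, the checkpoint receptor Ctla4 in 76.9% and the coreceptor Cd4 in 43.6%. Ccr8, another regulatory T cell marker, was detected in 15.4% of the T_reg cells. All 3 gamma-delta T cell, all 4 mast cell and both red cell markers were at 0, as were 3 of 4 NK cell markers. Markers of other cells were present, summing in T_reg to 296 CPM for dendritic cells (4 of 6 found), 191 CPM for macrophages and monocytes (5 of 5), 167 CPM for fibroblasts (2 of 3), 95.6 CPM for neutrophils (4 of 4), 76.5 CPM for endothelium (1 of 2), 57.3 CPM for epithelium (3 of 3) and 19.1 CPM for B and plasma cells (1 of 4). The 5 measured innate lymphoid markers, several of which regulatory T cells also use, summed to 1338 CPM (UMIs scaled to a sum of 1000000) in T_reg and 883 CPM in T_CD4+ cells. For the 2 other T cell names, Cd4 was in 84.0% of T_CD4+ and Cd8a in 82.3% of T_CD8+ cells. Cd8a was also in 14.8% of T_CD4+ and Cd4 in 4.29% of T_CD8+ cells. Neutrophil markers summed to 662 CPM in T_CD4+ cells. Macrophage and monocyte markers summed to 907 CPM in T_CD8+ cells, 643 CPM of it from Ly6c2. The classes were built from all genes, these 10 included, so levels by class are given as a description, without a test.

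On the mouse genome (GRCm38.p6) Tnfrsf4 (chr4:156013595-156016613) and Tnfrsf18 (chr4:156026322-156028894) are neighbours, with 9709 bases between the end of Tnfrsf4 and the start of Tnfrsf18, and Tnfrsf9 (chr4:150920155-150946104) lies on the same chromosome. Icos (chr1:60960773-61000322), Ikzf2 (chr1:69531207-69687351) and Il10 (chr1:131019845-131024970) share chromosome 1. Il2ra lies at chr2:11642792-11693194, Lrrc32 at chr7:98489305-98501831, Izumo1r at chr9:14885814-14903951 and Foxp3 at chrX:7579676-7595243. The promoters below, from 250 bases before to 50 after a RefSeq start, are shown for the inducible receptors that the treatment results turn on. All are on the plus strand, and capitals mark matches to the motifs named after them.
Il2ra (chr2:11642542-11642841): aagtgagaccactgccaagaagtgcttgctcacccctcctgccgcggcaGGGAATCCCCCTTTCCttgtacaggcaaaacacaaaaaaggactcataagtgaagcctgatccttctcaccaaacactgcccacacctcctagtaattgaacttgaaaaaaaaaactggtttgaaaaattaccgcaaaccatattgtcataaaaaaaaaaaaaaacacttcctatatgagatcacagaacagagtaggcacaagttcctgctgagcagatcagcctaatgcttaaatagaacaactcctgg
Tnfrsf4 (chr4:156013445-156013744): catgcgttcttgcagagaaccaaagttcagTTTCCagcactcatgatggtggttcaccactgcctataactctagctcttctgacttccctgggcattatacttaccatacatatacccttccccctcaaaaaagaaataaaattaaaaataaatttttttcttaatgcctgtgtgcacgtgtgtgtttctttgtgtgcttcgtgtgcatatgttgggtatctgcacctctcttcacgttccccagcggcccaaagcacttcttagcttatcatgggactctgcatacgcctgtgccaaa
Tnfrsf18 (chr4:156026072-156026371): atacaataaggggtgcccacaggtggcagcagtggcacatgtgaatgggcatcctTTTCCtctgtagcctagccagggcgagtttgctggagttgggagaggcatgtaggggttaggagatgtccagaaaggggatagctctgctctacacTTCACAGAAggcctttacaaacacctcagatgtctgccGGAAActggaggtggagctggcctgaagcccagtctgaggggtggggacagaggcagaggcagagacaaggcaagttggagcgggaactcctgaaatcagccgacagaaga
Tnfrsf9, first start (chr4:150919905-150920204): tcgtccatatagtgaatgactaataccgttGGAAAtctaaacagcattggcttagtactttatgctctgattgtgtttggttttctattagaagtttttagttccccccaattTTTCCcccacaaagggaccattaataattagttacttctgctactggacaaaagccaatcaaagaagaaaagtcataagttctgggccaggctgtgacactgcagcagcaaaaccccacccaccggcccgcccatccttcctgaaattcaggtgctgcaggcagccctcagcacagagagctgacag
Tnfrsf9, second start (chr4:150927749-150928048): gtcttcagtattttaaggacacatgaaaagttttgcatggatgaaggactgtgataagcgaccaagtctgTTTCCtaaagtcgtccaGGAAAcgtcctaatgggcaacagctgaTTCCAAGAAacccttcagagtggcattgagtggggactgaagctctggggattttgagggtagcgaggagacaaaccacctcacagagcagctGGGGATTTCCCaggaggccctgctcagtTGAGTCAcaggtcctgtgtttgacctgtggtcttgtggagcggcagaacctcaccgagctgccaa

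Motifs were sought on both strands: STAT (TTCNNNGAA), AP-1 (TGANTCA), the NFAT core (GGAAA), NF-kB and the TATA box (TATAAA). The Il2ra promoter holds a pair of overlapping NF-kB matches that begin 201 and 200 bases before the start, next to an NFAT core match at 190 bases. The second Tnfrsf9 start has overlapping NF-kB matches at 43 and 42 bases, an AP-1 match at 15 bases and a STAT match at 136 bases before it, whereas the first start has NFAT core matches only. Tnfrsf18 has a STAT match 99 bases before its start with 2 NFAT core matches, and Tnfrsf4 has a single NFAT core match. Of all 32851 promoters in the table, 8.46% hold the NF-kB motif, 7.81% AP-1, 8.3% STAT, 13.6% the TATA box and 61.3% the NFAT core. A match describes the letters in this window and is no evidence of binding.

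Of the transcription factors, Foxp3 was highest in the T_reg class, at 354 CPM of all its summed UMIs, against 9.94 CPM in the proliferating class Prof_immune, 2.39 CPM in T_CD4+ and 2.30 CPM in T_CD8+ cells. Of its 119 UMIs, 74 were in T_reg and 29 in Prof_immune cells. No Foxp3 UMI was found in 1446 neutrophils, which allows a share of up to 0.207% of neutrophils with a UMI. Ikzf2 (Helios), a zinc finger factor of regulatory and some innate-like lymphocytes, reached 1252 CPM in T_reg cells. NK cells came next for Ikzf2, at 212 CPM, above T_CD4+ at 104.5 CPM and T_CD8+ at 104.0 CPM, but the tumour ranges of these 3 classes overlapped. CPM is compared within a gene here, since the counts come from transcript ends and their capture differs between genes.

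The interleukin-2 receptor subunit Il2ra stood at 788 CPM in T_reg, 182 CPM in T_CD4+ and 80.8 CPM in T_CD8+ cells. Classes named dendritic held 114 CPM of it in cDC_Batf3+, 32.4 CPM in DC _other and 8.99 CPM in DC_Nos2+. The 17 cDC_Batf3+ cells held 26 Il2ra UMIs, 14 of them in 3 cells of BD+ICB replicate 1. DC _other held 508 CPM of dendritic markers, against 4937 CPM in cDC_Batf3+ and 6.19 CPM in Mmp+ macrophages. Its macrophage and monocyte markers summed to 1806 CPM, against 1991 CPM in cDC_Batf3+ and 9899 CPM in Mmp+ macrophages. With fewer dendritic markers than cDC_Batf3+, its name is less certain. Il2ra was detected in 89.7% of T_reg, 34.9% of T_CD4+ and 26.3% of T_CD8+ cells, against 0.49% of Neu_Cxcr2+ neutrophils, which should lack it (median UMIs per cell 3434, 6065, 6263 and 2393). Thinned to 1000 UMIs per cell, the shares were 47.4% of T_reg, 9.47% of T_CD4+, 6.81% of T_CD8+ and 0.257% of Neu_Cxcr2+ cells, so their order did not turn on depth.

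The costimulatory receptors were spread more widely. Tnfrsf4 was at 1744 CPM in T_reg and 615 CPM in T_CD4+ cells, and at 97.9 CPM in T_CD8+ cells. In cDC_Batf3+, the class next below T_CD4+ at 118 CPM, 1 tumour had 5 cells, and 12 and 13 of the UMIs came from 1 cell each in BD+ICB replicates 1 and 2. Tnfrsf18 was at 903 CPM in T_reg, 521 CPM in T_CD4+, 266 CPM in T_CD8+ and 209.6 CPM in NK cells. Icos, the receptor for Icosl, fell off little between T cell classes, with 917 CPM in T_reg, 537 CPM in T_CD4+ and 433 CPM in T_CD8+ cells. Tnfrsf9 was found in every T_reg cell, at 1610 CPM, and was similar in T_CD4+ at 531 CPM and T_CD8+ at 489 CPM, with NK cells at 367 CPM. It was also the receptor seen most outside lymphocytes: cDC_Batf3+ held 263 CPM, Mmp+ macrophages 194 CPM and mesenchymal cells 139 CPM.

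Lrrc32 (GARP), which holds latent TGF-beta on the surface of activated regulatory cells, was at 109.9 CPM in T_reg, 0 in T_CD4+ (0 of 169 cells, which allows a share of up to 1.78%) and 1.02 CPM in T_CD8+ cells. Izumo1r (folate receptor 4) was at 258 CPM in T_reg, 23.9 CPM in T_CD4+ and 2.56 CPM in T_CD8+ cells. Il10, a cytokine that regulatory cells can secrete, was the exception: it was at 23.9 CPM in T_reg cells, and 4 of the 39 cells held a UMI. Its highest class was Trem2+ macrophages at 83.0 CPM, then Ifit+ monocytes at 66.2 CPM and Mmp+ macrophages at 53.3 CPM. The 49 Ifit+ monocytes held 38 Il10 UMIs, 36 of them in 3 cells of ICB replicate 1, so their rank rests on 1 tumour.

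**Figure D1:**
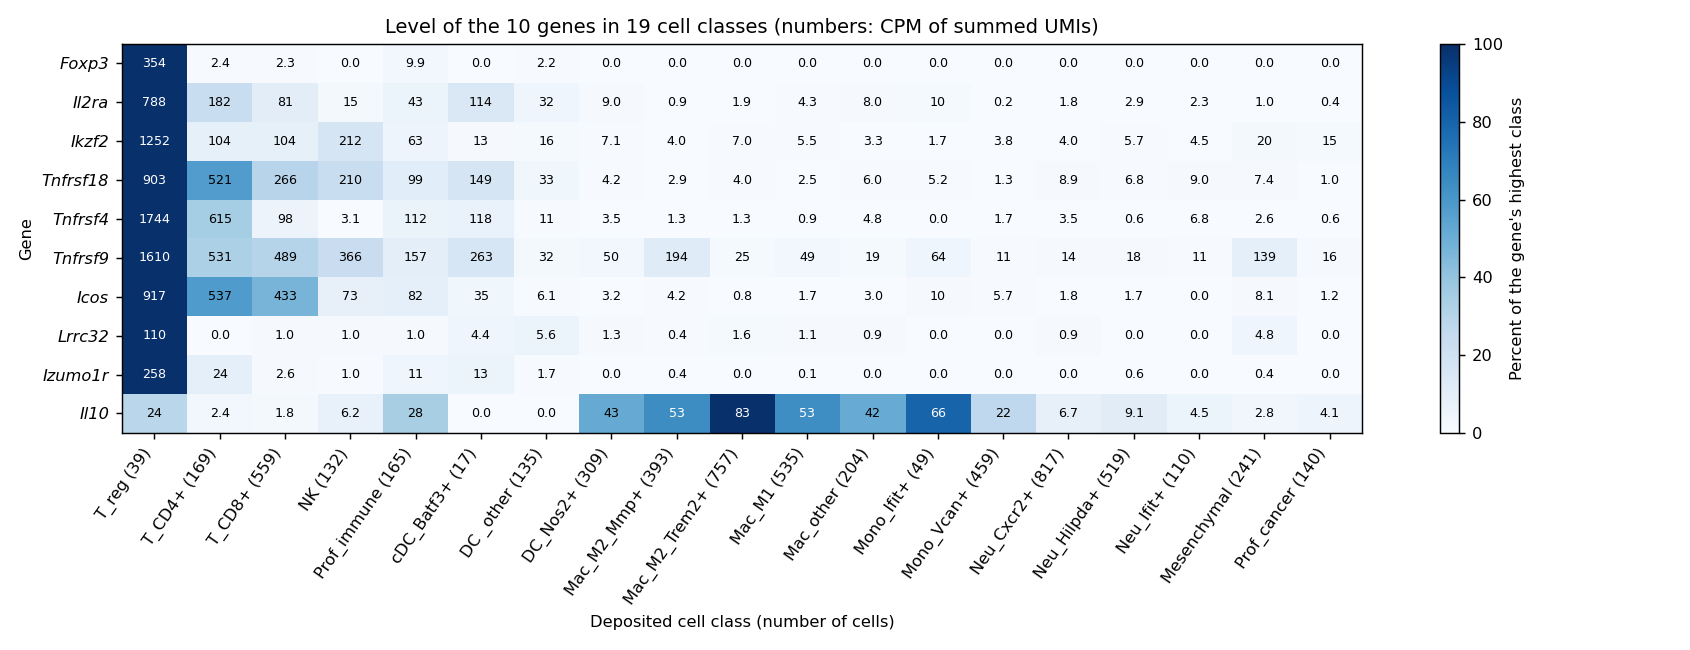
Level of each of the 10 genes (rows; numbers are CPM of UMIs summed over all tumours) in each annotated class (columns), with shading as percent of the gene's highest class. T_reg is the highest class for 9 genes, and Il10 is highest in Trem2+ macrophages.

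Tumours held too few T_reg cells for a test between groups, since only BD replicate 1 reached 10 cells. The 4 tumours with at least 5 T_reg cells come 1 from each group, with 5 cells in BD+ICB, 8 in ICB, 10 in BD and 6 in SD. Each value below therefore rests on 1 tumour and few cells. Over these tumours, Foxp3 was 425 CPM in BD+ICB, 311 CPM in ICB, 491 CPM in BD and 324 CPM in SD cells. Tnfrsf4 ranged more widely, with 851 CPM in BD+ICB, 1049 CPM in ICB, 2921 CPM in BD and 3239 CPM in SD cells, so both tumours of the library without blockade were above both of the other library. Il2ra was 425 CPM in BD+ICB, 951 CPM in ICB, 931 CPM in BD and 787 CPM in SD cells. With these tumours, the T_reg range did not overlap that of the next class for Foxp3, Il2ra, Ikzf2, Tnfrsf9 and Lrrc32, and overlapped for Tnfrsf18, Tnfrsf4, Icos and Izumo1r.

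A single T_reg cell held UMIs of a median of 7 of the 10 genes (range 3 to 9), against 4 in T_CD4+, 3 in T_CD8+ and 2 in NK cells. In 21 of 39 T_reg cells, Foxp3, Il2ra and Ikzf2 were found together. The 13 T_reg cells without a Foxp3 UMI held 1497 CPM of Il2ra, against 599 CPM in those with Foxp3, and 1179 CPM of Ikzf2, against 1271 CPM in those with Foxp3. Their median depth was 3380 UMIs, against 3754.5 UMIs in the cells with Foxp3.

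Foxp3 was detected in 38 cells in all, and 12 of these carried another class name. The largest number was in Prof_immune, the class of proliferating immune cells, where 5 of 165 cells held Foxp3. All 5 had Cd3e and the proliferation gene Mki67, 4 had Cd4 and 0 had Cd8a, and all came from the blockade library. Picked for a Foxp3 UMI, they held 756 CPM of Il2ra, 1152 CPM of Ikzf2, 977 CPM of Tnfrsf18, 2185 CPM of Tnfrsf4, 1595 CPM of Tnfrsf9, 839 CPM of Icos, 258 CPM of Izumo1r and 18.4 CPM of Il10. Lrrc32 was at 9.22 CPM in them, from 1 UMI, against 109.9 CPM in T_reg cells. These 5 cells supplied 3.72% of the UMIs of Prof_immune but 65.6% of its Il2ra, 68.3% of its Ikzf2, 72.3% of its Tnfrsf4 and 87.5% of its Izumo1r UMIs. For Tnfrsf18, Tnfrsf9, Icos and Lrrc32 the share ran from 33.3% to 37.9%, and for Il10 it was 2.41%. The remaining Foxp3-bearing cells were 4 T_CD8+, 2 T_CD4+ and 1 DC _other cell.

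The share of a gene's UMIs that came from the 3 T cell classes together ran from 83.3% for Icos and 76.1% for Tnfrsf4 to 0.8% for Il10. For Tnfrsf9 it was 41.6%, with 20.9% from macrophages, and for Ikzf2 44.7%. The macrophage classes gave 72.2% of Il10 UMIs. Totals over the table were 7012 UMIs of Tnfrsf9, 3070 of Icos and 2676 of Tnfrsf18, but 140 of Izumo1r, 119 of Foxp3 and 110 of Lrrc32.

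**Figure D2:**
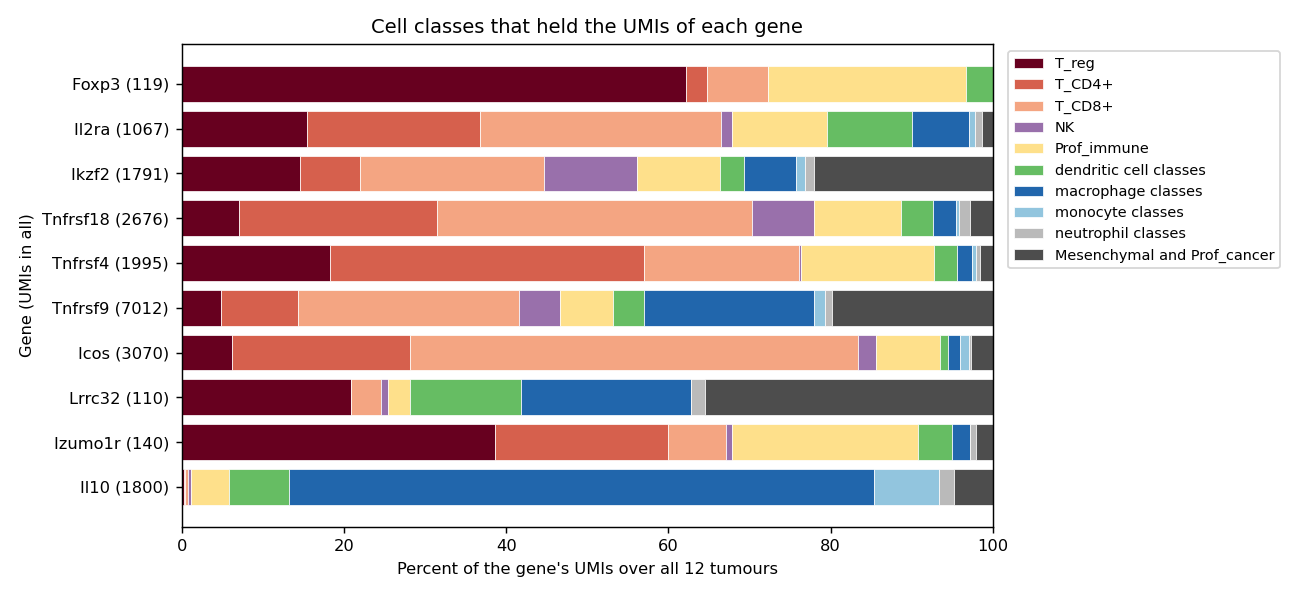
Share of each gene's UMIs (percent) by the group of classes it came from, all tumours summed. T cell classes supply 83.3% of Icos but 0.8% of Il10, for which macrophage classes supply 72.2%.

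Genes with the most similar pattern were ranked by the Pearson correlation of log2(CPM + 1) over the 16 classes with at least 50 cells, which leaves out the small T_reg class. These classes share the same 2 libraries and differ in depth, so the coefficients only describe. Icos was most like the T cell genes Cd2 (0.986), Lck (0.978) and Igflr1 (0.978). Tnfrsf4 was nearest to A430093F15Rik (0.957), then Cd5 (0.948) and Cd6 (0.946). Foxp3 was nearest to Itgae (0.883), an integrin chain of tissue-resident lymphocytes, then Izumo1r (0.849) and Tnfrsf4 (0.827). Outside T_reg, Foxp3 UMIs were found only in Prof_immune (29, from 5 cells), T_CD8+ (9), DC _other (4) and T_CD4+ cells (3). The Foxp3 coefficients over these 16 classes therefore rest on few cells. The nearest gene was Cd160 for Ikzf2 (0.961), Satb1 for Tnfrsf18 (0.968), Stk32c for Il2ra (0.922), Sugp1 for Tnfrsf9 (0.914), Tff1 for Izumo1r (0.929) and Spon1 for Lrrc32 (0.770). With the 18 classes of at least 30 cells, a choice made after seeing the data, Foxp3 and Izumo1r were each other's nearest gene (0.941).

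T_reg cells made up 2.25% ± 0.442 of T cells in BD+ICB, 3.09% ± 2.75 in ICB, 47.8% ± 50.1 in BD and 16.7% ± 14.5 in SD tumours (standard deviation, n = 3 each). The BD mean includes replicate 2, whose single T cell was a T_reg cell. Without that tumour, BD over SD was 5.07 points, the mean diet difference 2.12 points and BD+ICB over BD -19.5 points, in place of the values below. Without BD replicate 3, BD over SD was 55.1 points, the mean diet difference 27.1 points and BD+ICB over BD -69.5 points. ICB over SD was -5.25 points without SD replicate 3, and BD+ICB over ICB was 0.254 points without ICB replicate 1, -2.38 points without ICB replicate 2 and -0.377 points without ICB replicate 3. T_reg cells numbered 9 in BD+ICB, 11 in ICB, 11 in BD and 8 in SD tumours. The mean diet difference over both libraries was 15.2 percentage points (two-sided exact permutation p = 0.45). BD exceeded SD by 31.2 points (exact p = 0.4) and BD+ICB differed from ICB by -0.833 points (exact p = 0.7). ICB differed from SD by -13.6 points (exact p = 0.1) and BD+ICB from BD by -45.6 points (exact p = 0.4), while the difference between the diet effects was -32.0 points (exact p = 0.36). None of these 6 exact permutation tests passed, and 3 tumours against 3 cannot go below p = 0.1 in one.

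In T_CD4+ cells, adding the diet to blockade went with more Il2ra transcript. Il2ra was 259, 263.5 and 102 CPM in the BD+ICB tumours, against 52.1, 100.1 and 22.3 CPM in the ICB tumours. The groups did not overlap, as for 7.5% of genes tested (higher in BD+ICB), although the lowest BD+ICB tumour (102 CPM) was close to the highest ICB tumour (100.1 CPM). Means were 208 ± 91.7 CPM in BD+ICB and 58.2 ± 39.2 CPM in ICB (standard deviation, n = 3 each). The log2 fold change was 2.01 ± 0.43 (standard error; edgeR quasi-likelihood test, Benjamini-Hochberg adjusted p = 0.0477 over 2308 genes). Il2ra was 1 of 6 members that passed the filter on low counts in this class, and the only one called, where 0.91% of all genes tested were called. Foxp3, Lrrc32, Izumo1r and Il10 did not pass the filter.

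The Il2ra call sat near the threshold of 0.05. It was lost without BD+ICB replicate 1 (adjusted p = 0.146), BD+ICB replicate 2 (adjusted p = 0.243), ICB replicate 1 (adjusted p = 0.373) or ICB replicate 3 (adjusted p = 0.0979), all by edgeR. It was also lost with RLE size factors (edgeR adjusted p = 0.0548) and with a stricter hashtag rule (edgeR adjusted p = 0.15), and the log2 fold change stayed between 1.64 and 2.75 over all alternatives. Pooled over tumours, more cells carried the transcript, 45 of 95 (47.4%) in BD+ICB and 10 of 64 (15.6%) in ICB. BD+ICB replicate 2 gave 53 of the 95 cells. By tumour the shares were 39.3%, 54.7% and 35.7% in BD+ICB, against 11.5%, 33.3% and 11.5% in ICB. With cells thinned to equal depth as above, the groups overlapped, at 10.7%, 15.1% and 7.14% in BD+ICB, against 3.85%, 8.33% and 0% in ICB. The counts were not from a few cells in BD+ICB, where the 3 highest gave 25.5% of the 192 UMIs, against 60.9% of 23 UMIs in ICB. In each group 1 of the Il2ra-bearing cells held Foxp3. Neutrophil markers moved with this result: they summed to 169.6, 21.6 and 11.4 CPM in BD+ICB T_CD4+ cells, against 504, 3668 and 2143 CPM in ICB, and their part in it was not tested. Neutrophils were 9.29% ± 9.35 of cells in BD+ICB and 35.3% ± 19.6 in ICB tumours (standard deviation, n = 3 each).

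The costimulatory receptors did not follow Il2ra in T_CD4+ cells. Icos was 543, 477 and 729 CPM in BD+ICB, against 521, 583 and 536 CPM in ICB. Tnfrsf9 was 551, 529 and 433 CPM in BD+ICB, against 458, 646 and 536 CPM in ICB. Tnfrsf4 was 488, 646 and 660.2 CPM in BD+ICB, against 452, 528 and 863 CPM in ICB. The groups overlapped for all 3 and for Tnfrsf18. Ikzf2 was 110.3, 34.6 and 0 CPM in BD+ICB, against 319, 127 and 89.3 CPM in ICB, and also overlapped. Izumo1r, too low to be tested, was 4.24, 6.48 and 11.4 CPM in BD+ICB, against 52.1, 63.7 and 14.9 CPM in ICB, from 1, 3 and 1 UMIs in BD+ICB and 9, 7 and 2 UMIs in ICB.

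T_CD8+ cells had the same direction for Il2ra without a call. It was 164, 92.2 and 76.8 CPM in BD+ICB, against 52.0, 50.2 and 27.2 CPM in ICB, with no overlap (log2 fold change 1.27 ± 0.34, edgeR adjusted p = 0.169). Icos did not overlap either, at 541, 499 and 430.0 CPM in BD+ICB, against 424, 293.5 and 249 CPM in ICB (0.59 ± 0.18, edgeR adjusted p = 0.195). Groups without overlap and higher in BD+ICB were 7.22% of the genes tested in this class. Of 6 members tested, 0 were called by edgeR and 0 by DESeq2, 2 had an unadjusted p under 0.05, and 0.874% of all 5375 genes were called. Tnfrsf9 was 725, 522.5 and 468 CPM in BD+ICB, against 518, 330.5 and 179 CPM in ICB, and Tnfrsf4 was 174, 77.7 and 113 CPM in BD+ICB, against 119.6, 58.2 and 50.6 CPM in ICB. These groups overlapped. Pooled over tumours, Il2ra was found in 109 of 303 BD+ICB cells (36.0%) and 33 of 215 ICB cells (15.3%). By tumour the shares were 45.0%, 33.9% and 29.3% in BD+ICB, against 19.5%, 13.7% and 6.52% in ICB. With cells thinned to equal depth, they were 11.25%, 7.27% and 7.02% in BD+ICB, against 5.09%, 3.92% and 2.17% in ICB. Neutrophil markers summed to 28.7, 38.8 and 20.5 CPM in BD+ICB and 355, 1785 and 758.5 CPM in ICB, a part not tested.

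**Figure D3:**
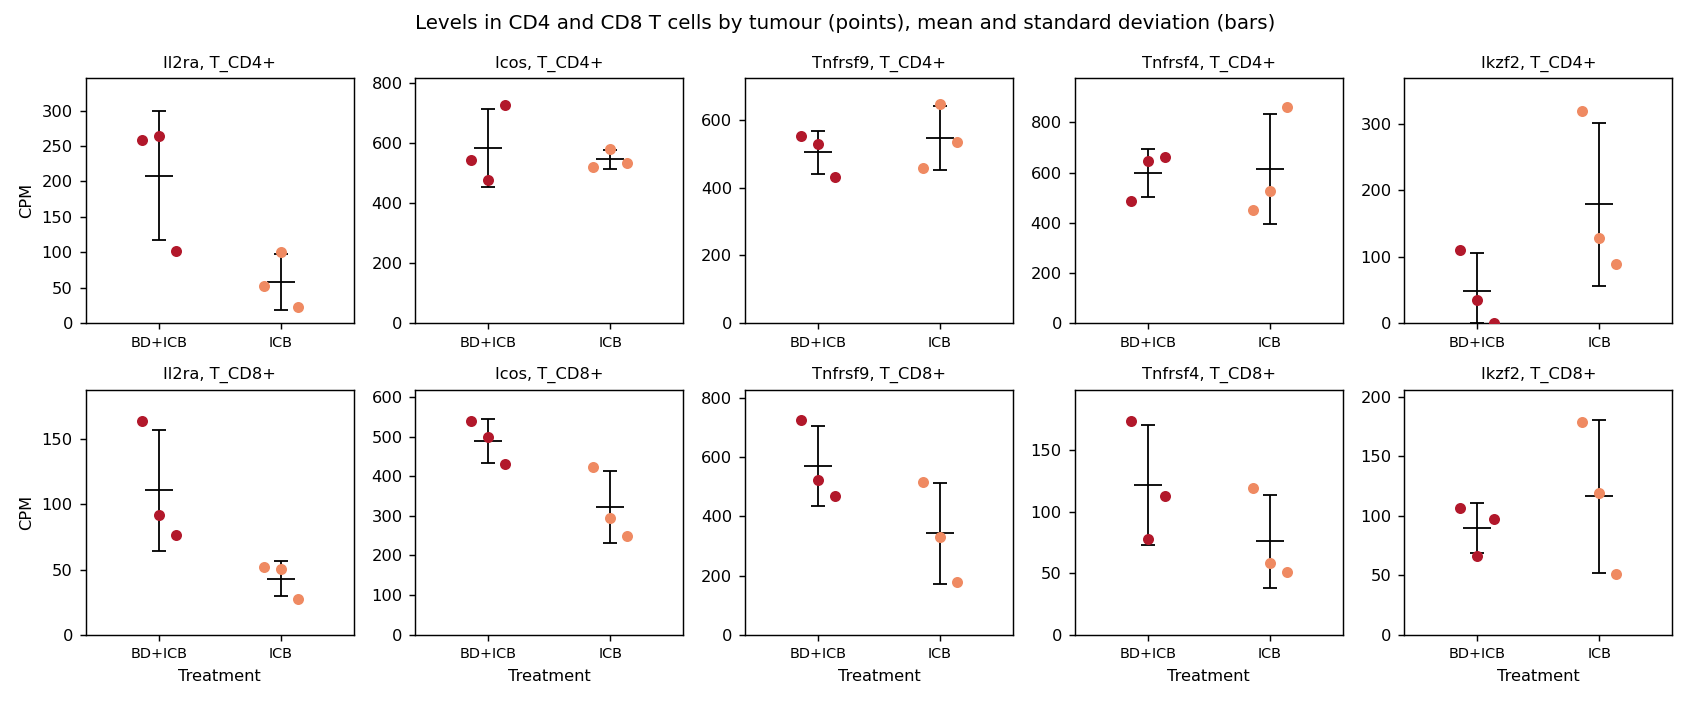
Levels in T_CD4+ and T_CD8+ cells per tumour (CPM), BD+ICB beside ICB. Points are tumours with at least 10 cells, and lines give the mean and standard deviation, cut at 0. Il2ra in T_CD4+ cells lies between 102 and 263.5 CPM in BD+ICB and between 22.3 and 100.1 CPM in ICB.

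Within a class, cells with Il2ra also held more Tnfrsf9 and Tnfrsf4, but not more of every member. T_CD8+ cells with an Il2ra UMI had 696 CPM of Tnfrsf9 and 155 CPM of Tnfrsf4, against 385 CPM and 69.4 CPM in cells without one. T_CD4+ cells with Il2ra had 670.0 CPM of Tnfrsf9, against 407 CPM without. Cells with Il2ra were deeper, with a median of 7523 UMIs against 5720 in T_CD8+ and 7540 against 5352 in T_CD4+ cells. Icos was at 533 CPM in T_CD4+ cells with Il2ra and 540.0 CPM in those without. In T_CD8+ cells Tnfrsf18 was at 274 CPM with Il2ra and 261 CPM without. In these sums Ikzf2 was lower with Il2ra, at 95.8 against 108 CPM in T_CD8+ and 91.1 against 116.5 CPM in T_CD4+ cells. These sums pool the groups, and BD+ICB gave 109 of the 147 T_CD8+ cells with Il2ra. Within BD+ICB T_CD8+ cells, Tnfrsf9 was at 697 CPM with Il2ra and 468 CPM without, and within ICB T_CD8+ cells at 731.5 CPM with and 325 CPM without. Tnfrsf4 was at 141 CPM with and 85.1 CPM without in BD+ICB T_CD8+ cells, and at 212 CPM with and 59.6 CPM without in ICB T_CD8+ cells. Icos went both ways, at 471 CPM with and 519 CPM without in BD+ICB, and 444 CPM with and 337 CPM without in ICB T_CD8+ cells. The lower Ikzf2 of the pooled sums did not hold within groups. In T_CD8+ cells it was at 83.2 CPM with and 81.9 CPM without in BD+ICB, and 140.4 CPM with and 140.9 CPM without in ICB. In T_CD4+ cells it was at 51.1 CPM with and 56.7 CPM without in BD+ICB, and 219.8 CPM with and 186.2 CPM without in ICB.

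Related genes were counted in the same fits for BD+ICB over ICB. Of the interleukin-2 receptor pathway, 9 genes were tested in T_CD4+ cells, 0 were higher and 1 was lower: Socs3, a feedback inhibitor of cytokine signalling, fell to 46.6 ± 0.992 CPM in BD+ICB, against 131 ± 44.9 CPM in ICB (-1.41 ± 0.33, edgeR adjusted p = 0.0477). The neutrophil markers given above for these T_CD4+ sums were lower in BD+ICB as well, and their part in the Socs3 difference was not tested. The partner chains of Il2ra did not pass, with Il2rb at 677 ± 85.2 CPM in BD+ICB and 668 ± 80.0 CPM in ICB, and Il2rg at 364.5 ± 39.6 CPM in BD+ICB and 270.5 ± 60.3 CPM in ICB. Of 11 other regulatory T cell genes tested, Capg, an actin-capping protein, was the only one called and rose to 476 ± 66.4 CPM in BD+ICB, against 222.5 ± 64.0 CPM in ICB (1.08 ± 0.23, edgeR adjusted p = 0.0338). The list medians were 0.0444 (interleukin-2 pathway) and 0.109 (other regulatory genes) on the log2 scale, beside 0.0107 for all genes tested. None of 6 other costimulatory receptors, 7 genes of TNF receptor signalling or 1 ligand was called, and the interleukin-10 list had Socs3 as its 1 lower gene of 3. Among the most abundant of these, Cd2 was at 534 ± 109.5 CPM in BD+ICB and 537 ± 69.3 CPM in ICB, and the NF-kB inhibitor Nfkbia at 932.5 ± 72.2 CPM in BD+ICB and 1170.0 ± 194 CPM in ICB. In T_CD8+ cells, 0 genes of any list were called by edgeR, with 1 ligand, 12 interleukin-2 pathway genes, 16 other regulatory genes, 7 other costimulatory receptors, 10 genes of TNF receptor signalling and 5 of the interleukin-10 list tested.

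With the 3 T cell classes merged, all 10 members were tested for BD+ICB over ICB and 0 were called by edgeR or DESeq2, with 2 at an unadjusted p under 0.05, where 0.559% of all 7160 genes were called. For ICB over SD, 1 member was called, where 1.13% of genes were. Izumo1r fell to 20.7, 18.4 and 4.94 CPM in ICB, against 54.3, 54.4 and 121 CPM in SD, without overlap (log2 fold change -2.22 ± 0.57, edgeR adjusted p = 0.0367). Foxp3 was 22.6, 2.05 and 2.47 CPM in ICB, against 21.7, 109 and 106 CPM in SD, and did not pass (-2.55 ± 0.73, edgeR adjusted p = 0.0929). The share of T_reg among these cells moved with both, at 3.09% in ICB and 16.7% in SD. The Izumo1r call was lost without ICB replicate 2 (edgeR adjusted p = 0.0511), ICB replicate 3 (0.0654), BD replicate 1 (0.0762), SD replicate 1 (0.108), SD replicate 2 (0.0882) or SD replicate 3 (0.341). Icos in T_CD8+ cells had a log2 fold change of 1.15 ± 0.33 for ICB over SD (edgeR adjusted p = 0.0774, with 2 SD tumours), where 2.2% of genes were called. Blockade and library cannot be told apart in these comparisons.

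Over all cells of a tumour, where fewer cells of a type and less RNA per cell cannot be told apart, 4 of 10 members were higher in BD than in SD tumours, where 21.3% of all 11988 genes were called in either direction. Il10 was 71.1, 43.1 and 82.0 CPM in BD, against 25.1, 13.7 and 11.7 CPM in SD (mean 65.4 ± 20.1 CPM in BD and 16.8 ± 7.22 CPM in SD, log2 fold change 2.14 ± 0.33, edgeR adjusted p = 0.0021). Every BD tumour was above every SD tumour, as for 11.8% of all genes. Il2ra was 27.6, 37.2 and 5.98 CPM in BD, against 5.80, 2.73 and 6.27 CPM in SD (2.22 ± 0.54, edgeR adjusted p = 0.0148), and Icos 47.6, 19.6 and 21.4 CPM in BD, against 10.2, 9.76 and 8.15 CPM in SD (1.97 ± 0.48, edgeR adjusted p = 0.0167). BD replicate 3 lay within the SD range for Il2ra, while the Icos groups did not overlap. BD replicates 2 and 3 gave 70 and 117 cells, of which 1 and 3 were T cells, so their values rest on few UMIs. BD replicate 1 gave 303 cells with 23 T cells. Tnfrsf4 was 69.1, 19.6 and 13.7 CPM in BD, against 6.22, 11.3 and 15.5 CPM in SD (1.99 ± 0.60, edgeR adjusted p = 0.0415), so replicate 1 carried most of the difference. Without BD replicate 1 the edgeR adjusted p was 0.177 for Icos, 0.114 for Il2ra and 0.537 for Tnfrsf4. Icos was also lost without SD replicate 3 (0.0526), and Tnfrsf4 without any one of 7 other tumours (0.0531 to 0.122, all but BD+ICB replicate 2, ICB replicate 2, BD replicate 2 and BD replicate 3). With no filter on low counts Icos (0.0532) and Tnfrsf4 (0.113) were lost, and Tnfrsf4 also with a replicate block (0.0896) and with only this library's tumours (0.0889). Il10 was called without each tumour in turn.

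For BD+ICB over ICB, 2 members were called over all cells, where 6.48% of genes were. Il2ra was 23.8, 35.0 and 16.3 CPM in BD+ICB, against 12.5, 7.55 and 8.67 CPM in ICB (1.49 ± 0.38, edgeR adjusted p = 0.0439). Icos was 63.2, 107.9 and 49.0 CPM in BD+ICB, against 47.8, 27.0 and 21.3 CPM in ICB (1.31 ± 0.34, edgeR adjusted p = 0.0488). Neither gene's groups overlapped, as for 9.14% of genes with the higher values in BD+ICB, but the Il2ra call was lost without any one of 9 tumours (0.0505 to 0.202, all but BD replicates 1, 2 and 3) and the Icos call without any one of 10 (0.0505 to 0.206, all but ICB replicate 1 and BD replicate 1). Both were lost with no filter on low counts (0.0884 for Il2ra and 0.107 for Icos) and with a stricter hashtag rule (0.0535 for Il2ra and 0.0587 for Icos), and Icos with RLE size factors (0.0537) and with only this library's tumours (0.0879). Il10 did not follow, with 16.3, 28.0 and 24.8 CPM in BD+ICB, against 31.6, 20.9 and 20.5 CPM in ICB, and the groups overlapped. The difference between the diet effects with and without blockade was -2.11 ± 0.43 for Il10 (edgeR adjusted p = 0.227). In that comparison 0 of 10 members and 0 of 11988 genes were called by edgeR, 1 member had an unadjusted p under 0.05, and DESeq2 called 1.

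Averaged over both libraries, the diet effect was called for 6 of 10 members, where 30.6% of genes were called: Il2ra (1.86, edgeR adjusted p = 0.00211), Icos (1.64, 0.00262), Il10 (1.09, 0.0034), Tnfrsf4 (1.60, 0.0115), Tnfrsf9 (0.90, 0.0263) and Tnfrsf18 (1.13, 0.0325). Without BD replicate 1, the adjusted p was 0.0997 for Tnfrsf4, 0.0884 for Tnfrsf9 and 0.337 for Tnfrsf18. Tnfrsf18 and Tnfrsf9 were each lost without 5 other tumours as well (0.0586 to 0.0744 for Tnfrsf18 without replicate 2 of BD+ICB, 2 or 3 of ICB, or 2 or 3 of SD, and 0.0523 to 0.0638 for Tnfrsf9 without replicate 2 of BD+ICB, 1 or 3 of ICB, or 1 or 3 of SD). With no filter on low counts both were lost, at 0.0903 for Tnfrsf18 and 0.0794 for Tnfrsf9. For BD+ICB over BD, which lies across the libraries, Il10 was lower (-1.65 ± 0.31, edgeR adjusted p = 0.0102), the 1 member called where 8.8% of genes were, and without BD replicate 3 its adjusted p was 0.0664. For ICB over SD, 0 members were called by edgeR and 1 by DESeq2, with 1 at an unadjusted p under 0.05, where 2.89% of genes were called.

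**Figure D4:**
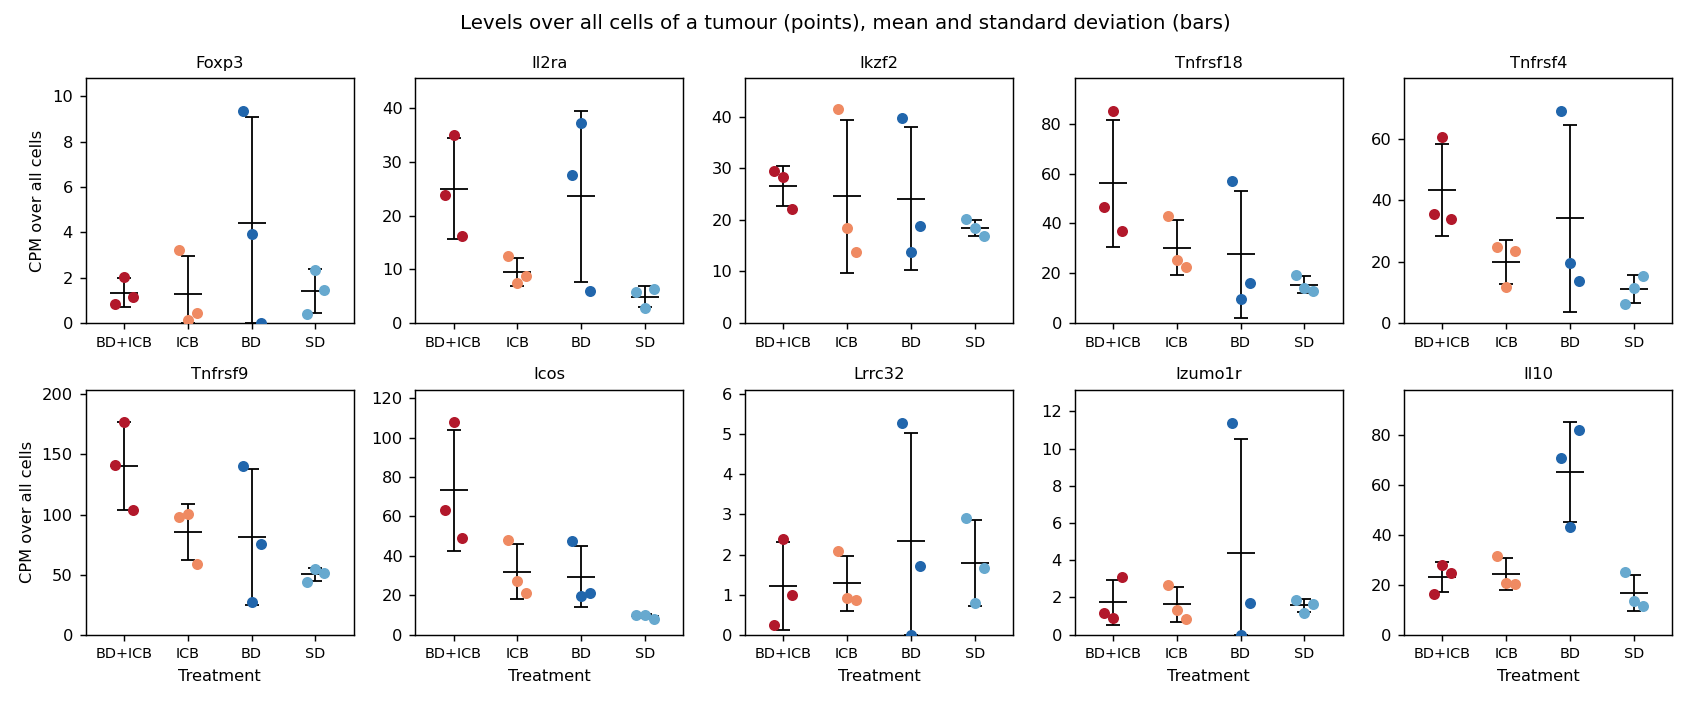
Levels over all cells of each tumour (CPM) for the 10 genes, with BD+ICB beside ICB and BD beside SD. Points are tumours, and lines give the mean and standard deviation, cut at 0. Il10 lies between 43.1 and 82.0 CPM in BD and between 11.7 and 25.1 CPM in SD tumours.

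The make-up of the sampled cells moved with these sums. Mesenchymal and cancer cells gave 6.96% ± 6.45 of UMIs in BD and 46.2% ± 2.16 in SD tumours, and 22.8% ± 2.5 in BD+ICB and 41.1% ± 8.89 in ICB tumours (standard deviation, n = 3 each). Macrophages were 56.9% ± 8.46 of cells in BD and 31.4% ± 3.48 in SD tumours, while T cells were 22.7% ± 10.3 in BD+ICB and 12.5% ± 5.18 in ICB tumours. With the sums restricted to immune cells, a comparison added after seeing the data, edgeR called 0 of 9 members in each diet comparison. For BD over SD, 3 members had an unadjusted p under 0.05 and DESeq2 called 1, with 0% of 10551 genes called. Il10 was then at 1.47 ± 0.39 (edgeR adjusted p = 0.305). For BD+ICB over ICB, 1 member had an unadjusted p under 0.05 and DESeq2 called 0, with 0.0284% of genes called, and Il2ra was at 0.99 (edgeR adjusted p = 0.404). For the mean diet effect 3 members had an unadjusted p under 0.05 and DESeq2 called 2, with 0.815% of genes called.

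Some partners of the members were also called over all cells, and their counts stand beside the 21.3% of all genes called for BD over SD and the 6.48% called for BD+ICB over ICB. Among 9 ligands and their partners, of which 7 were tested, Cd86, the ligand of CD28 and CTLA-4 on myeloid cells, averaged 163 ± 12.2 CPM in BD and 87.8 ± 8.83 CPM in SD tumours (1.05 ± 0.15, edgeR adjusted p = 0.00139), and 177 ± 18.7 CPM in BD+ICB and 99.8 ± 19.5 CPM in ICB tumours (0.93 ± 0.15, edgeR adjusted p = 0.0062). Tnfsf9, the ligand of Tnfrsf9, averaged 56.7 ± 11.4 CPM in BD and 38.6 ± 3.36 CPM in SD tumours (edgeR adjusted p = 0.0228). Of 13 interleukin-2 pathway genes tested, Cish, Stat5b and Il7r were higher and 0 lower in BD over SD, and Cish and Il7r were higher and Il15 lower in BD+ICB over ICB. Of 7 interleukin-10 receptor and response genes, Il10ra, Il10rb and Stat3 were higher in BD over SD and Stat3 in BD+ICB over ICB. Il10ra, the ligand-binding chain, averaged 56.9 ± 11.6 CPM in BD and 32.3 ± 2.05 CPM in SD tumours (edgeR adjusted p = 0.00441).

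Of 20 other regulatory T cell genes tested, 10 were higher and 1 was lower in BD over SD, and 3 were higher in BD+ICB over ICB, again beside 21.3% and 6.48% of all genes. They include genes that macrophages and stroma also use, such as Tgfb1, at 209.6 ± 34.2 CPM in BD and 129 ± 10.8 CPM in SD tumours, and Il1rl1, which was lower, at 20.3 ± 17.2 CPM in BD and 77.7 ± 10.5 CPM in SD tumours. Of 10 other costimulatory receptors, Cd2 was higher in BD over SD, and Slamf6 and Cd226 in BD+ICB over ICB. Of 11 genes of TNF receptor signalling, Traf1 and Rel were higher in BD over SD and 0 passed in BD+ICB over ICB. The list medians for BD over SD ran from 0.313 to 1.12 on the log2 scale, beside 0.0288 for all genes. In the sums over immune cells only, edgeR called 0 genes of these 6 lists in either comparison.

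Within macrophages, the largest source of Il10 and also a source of Tnfrsf9, no member was called in the Trem2+ or Mmp+ class in either diet comparison, where 0% (Trem2+) and 0.0212% (Mmp+) of genes were called in each. Tnfrsf9, known mainly from T cells, had non-overlapping groups in Trem2+ macrophages of both libraries. It was 44.6, 56.4 and 69.3 CPM in BD+ICB, against 26.3, 25.8 and 12.5 CPM in ICB (1.13 ± 0.38, edgeR adjusted p = 0.721), and 43.6, 15.1 and 36.3 CPM in BD, against 5.72, 10.6 and 13.8 CPM in SD (1.65 ± 0.43, edgeR adjusted p = 0.762). The lowest BD value (15.1 CPM, replicate 2, a tumour of 70 cells in all) was close to the highest SD value (13.8 CPM). Trem2+ macrophages held 158 Tnfrsf9 UMIs over all tumours. Of all genes tested there, 4.79% had groups that did not overlap and were higher in BD+ICB, and 7.74% likewise in BD. The mean diet effect was 1.39 ± 0.29 (edgeR adjusted p = 0.161), where 0 of 5049 genes were called. In Mmp+ macrophages Tnfrsf9 was 226, 333 and 277 CPM in BD+ICB, against 152, 241 and 132.5 CPM in ICB, and 200.3, 30.7 and 149 CPM in BD, against 25.4, 22.8 and 85.0 CPM in SD. Those groups overlapped in both libraries. The Mmp+ values rest on 4 UMIs in BD replicate 2 and on 3 UMIs in each of SD replicates 1 and 2.

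Il10 in Trem2+ macrophages was 169, 90.9 and 166 CPM in BD, against 70.1, 29.7 and 28.7 CPM in SD (1.71 ± 0.61, edgeR adjusted p = 0.796), without overlap. In the blockade library it was 97.4, 0 and 76.3 CPM in BD+ICB, against 90.9, 94.4 and 187.5 CPM in ICB, and the groups overlapped. The share of Trem2+ macrophages among cells lay between 25.1% and 28.6% in the BD group, against 19.4% to 22.3% in the SD group. With blockade it lay between 3.53% and 7.71% in BD+ICB, against 2.85% to 28.0% in ICB. The macrophage classes supplied 63.9% of Il10 UMIs in BD+ICB, 71.2% in ICB, 95.2% in BD and 65.1% in SD tumours. With all macrophages merged, a sum added after seeing the data, Tnfrsf9 was called for ICB over SD, across the libraries (2.18 ± 0.52, edgeR adjusted p = 0.0391, where 5.77% of genes were called) and not for BD over SD (2.11 ± 0.56, edgeR adjusted p = 0.281, where 0% were). The call was lost without any one of 7 tumours, with adjusted p from 0.055 to 0.108 (all but ICB replicates 1 and 2, BD replicates 1 and 2, and SD replicate 3). It was also lost with no filter on low counts (0.059), with a replicate block (0.0683) and with a stricter hashtag rule (0.0913).

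**Figure D5:**
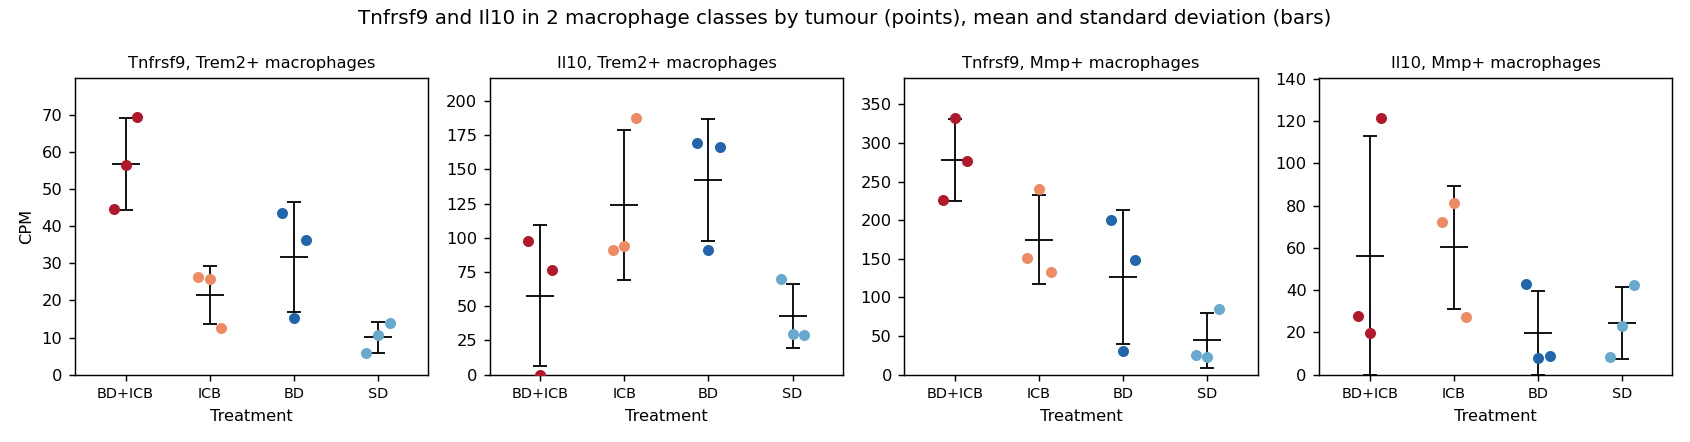
Tnfrsf9 and Il10 in Trem2+ and Mmp+ macrophages per tumour (CPM), with BD+ICB beside ICB and BD beside SD. Points are tumours with at least 10 cells, and lines give the mean and standard deviation, cut at 0. Tnfrsf9 in Trem2+ macrophages lies between 44.6 and 69.3 CPM in BD+ICB and between 12.5 and 26.3 CPM in ICB tumours.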

How the data were processed

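Single cells of 12 tumours were sequenced with 10x Genomics chemistry. Per the file headers, the deposited matrices come from Cell Ranger 6.1.1 and hold raw counts (UMIs per gene and cell), on mm10 per the submitters' processing notes, and the authors' metadata assign cells to hashtags, tumours and classes. Doublet handling is not given in the sources used here. Here counts were summed per tumour and class (at least 10 cells) and tested with edgeR 4.0.16 (TMM, filterByExpr, robust quasi-likelihood fit of all 4 groups, Benjamini-Hochberg over all genes, threshold 0.05), with DESeq2 1.42.0 as an alternative. Intervals cover counting error only. In data simulated from T_CD8+ cells, 82.8% of genes changed 4-fold and 11.8% of those changed 2-fold were called. The simulation set the same spread between tumours for every gene, without estimating it from these tumours, and changed only genes past the filter. Its shares may therefore differ from those of the real fits. The members and gene lists were chosen with earlier results of these data known. All members are named, and of each list the called genes or those of highest level. Same-numbered tumours did not deviate together in every pair (correlations over 5592 genes of 0.386, -0.0561 and 0.387 for BD+ICB with ICB, and 0.431, 0.192 and 0.0814 for BD with SD), so no pairing was used. Promoters are RefSeq's on GRCm38.p6, found for 6 members. The genes most like Il10 in pattern are not reported here.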

Additional observations from a re-analysis of the deposited data

How the results depend on the processing

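Alternatives changed one choice at a time, and values are numbers of members called unless stated; the cause of a change was not tested. Within classes, BD+ICB over ICB (1 called) gave 0 with RLE size factors and with a stricter hashtag rule, 6 with no filter on low counts, 2 with at least 5 cells per tumour, and 0 to 2 without 1 tumour. ICB over SD (0 called) gave 1 with DESeq2, 7 with no filter, 1 with at least 20 cells, 1 with macrophages merged, and 0 to 3 without 1 tumour. With no filter, BD over SD gave 1, the mean diet effect 2 and BD+ICB over BD 3 (each 0 called), and BD+ICB over BD gave 0 to 1 without 1 tumour. In merged T cells, ICB over SD (1 called) gave 2 with no filter and 0 to 2 without 1 tumour. Over all cells, BD+ICB over ICB (2 called) gave 1 with RLE size factors and with only the library's own tumours, 0 with no filter, the stricter hashtag rule or immune cells only, and 0 to 2 without 1 tumour. BD over SD (4 called) gave 2 with no filter, 0 with immune cells only and 1 to 5 without 1 tumour. The mean diet effect (6 called) gave 0 with immune cells only and 3 to 7 without 1 tumour. DESeq2 gave 1 for ICB over SD (0 called, 0 to 1 without 1 tumour), 1 for the difference of diet effects (0 called) and 2 for BD+ICB over BD (1 called), which gave 0 with immune cells only and 0 to 1 without 1 tumour. Without 1 tumour, Izumo1r over all cells ran from -0.29 to 2.40 (log2) for BD over SD and from -2.59 to 0.39 for BD+ICB over BD, with the sign turned without BD replicate 1.

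Tumour numbers were not used to pair the samples in the main fits, and a shared effect of same-numbered tumours was not tested. A replicate block gave 4 calls for BD+ICB over ICB and 2 for ICB over SD within classes, 2 for ICB over SD in merged T cells and 1 for ICB over SD over all cells.

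The T_reg share turned to -1.61 points (mean diet difference) and -1.19 points (BD over SD) as a share of T_reg and T_CD4+ cells, and to 0.074 points for BD+ICB over ICB as a share of all cells. Without 1 tumour it ran from -2.38 to 0.254 points for BD+ICB over ICB, 5.07 to 55.1 for BD over SD, 2.12 to 27.1 for the mean diet difference, -18.6 to -5.25 for ICB over SD and -69.5 to -19.5 for BD+ICB over BD. The lowest BD over SD and mean diet values were without BD replicate 2, the highest without BD replicate 3. The number of cells limited the T_reg class, where no comparison between groups could be tested, and BD and SD tumours held too few T_CD4+ cells for a diet test without blockade.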

Other observations

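Some genes of the related lists changed in T_CD8+ cells for ICB over SD, a comparison of 3 ICB and 2 SD tumours in which blockade and library cannot be told apart. The SD tumours, replicates 1 and 3, held only 11 and 12 T_CD8+ cells, so low SD levels rest on few UMIs. Of 16 other regulatory T cell genes tested, 2 were higher and 0 lower, where 2.2% of all 5375 genes were called. Ctla4, an inhibitory receptor and a target of the blockade, averaged 188 ± 32.1 CPM in ICB and 18.1 ± 6.35 CPM in SD cells (standard deviation; log2 fold change 3.35 ± 0.59, edgeR adjusted p = 0.00146), and Tgfb1 averaged 444 ± 141 CPM in ICB and 113 ± 63.7 CPM in SD cells (2.01 ± 0.45, edgeR adjusted p = 0.0264). Of 10 genes of TNF receptor signalling, Traf1, an adaptor of Tnfrsf9 and related receptors, was the 1 called and averaged 141 ± 33.8 CPM in ICB and 36.2 ± 12.7 CPM in SD cells (1.97 ± 0.53, edgeR adjusted p = 0.0475). Socs3, in both the interleukin-2 and interleukin-10 lists, fell to 60.7 ± 20.8 CPM in ICB, against 265 ± 8.79 CPM in SD cells (-2.24 ± 0.37, edgeR adjusted p = 0.000825).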
